A study of Equus caballus with 24 samples.

Results

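The juvenile pituitary of the Debao pony (DP), a small native breed of southern China, was compared with that of the taller Mongolian horse (MH). The comparison used all genes of 6 of the 24 RNA-seq libraries of the series, 3 labelled juvenile DP pituitary (DPPJ) and 3 labelled juvenile MH pituitary (MHPJ). Each library came from 1 female horse under 3 years of age, killed at a slaughterhouse, and no treatment or genetic change is given for either group. The other libraries are of the adult pituitary (DPPA and MHPA) and of the long bone, and only the adult pituitary is used here. Reads on genes numbered 18269442, 19490046 and 21048794 in DPPJ and 16153537, 11433209 and 15548895 in MHPJ. Of 24232 genes listed, 22143 had at least 1 read in these libraries and 14603 passed the filter on low counts and were tested. With 3 horses a group, p-values measure the spread between these 6 animals.

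The pituitary has an anterior lobe, in which separate endocrine cells make growth hormone, prolactin, the gonadotropins, thyrotropin and the products of pro-opiomelanocortin, and a posterior lobe, which is nervous tissue. These endocrine cells are set up by a chain of homeodomain and other transcription factors, and their secretion is driven or held back by peptides and dopamine from the hypothalamus. The posterior lobe consists of axons of hypothalamic vasopressin and oxytocin neurons and of glial cells called pituicytes, and the gland is attached to the base of the brain by a stalk.

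The 3 MHPJ libraries went against their tissue label. The summed level of 7 anterior-lobe hormone genes was 41770, 33490 and 33490 CPM in DPPJ replicates 1 to 3, against 1.07, 14.6 and 1.25 CPM in MHPJ replicates 1 to 3, where CPM is read counts scaled to a common library size after TMM normalization. The 16 astrocyte genes summed to 7289, 4644 and 6498 CPM in MHPJ. In MHPJ replicate 2 most of this sum was S100B, with 38994 reads, a gene that Schwann cells also express. GFAP had 581 reads and AQP4 43 reads in that library, against 38302 and 17991 reads in MHPJ replicate 1. The 23 neuronal genes summed to 8404, 1321 and 10370 CPM in MHPJ and to 1714, 2122 and 1806 CPM in DPPJ. MHPJ replicate 2 stood apart from the other MHPJ libraries: across tested genes its log2 CPM correlated at 0.781 and 0.757 with the other MHPJ libraries, which correlated at 0.969 with each other, while the DPPJ libraries correlated at 0.969 to 0.977. In that library 7 peripheral myelin genes summed to 39110 CPM, against 105.7 CPM at most in the other 5 libraries. DPPJ replicate 2 also carried glial transcripts, with 4230 CPM over the astrocyte genes against 345.6 and 368.8 CPM in DPPJ replicates 1 and 3. Breed and the tissue that was sampled therefore cannot be told apart in these 6 libraries, and every difference below is one between the libraries as labelled. In bulk tissue, fewer cells of a type and less RNA per cell cannot be told apart either. Results that rest on MHPJ replicate 2 are given with and without it.

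**Figure D1:**
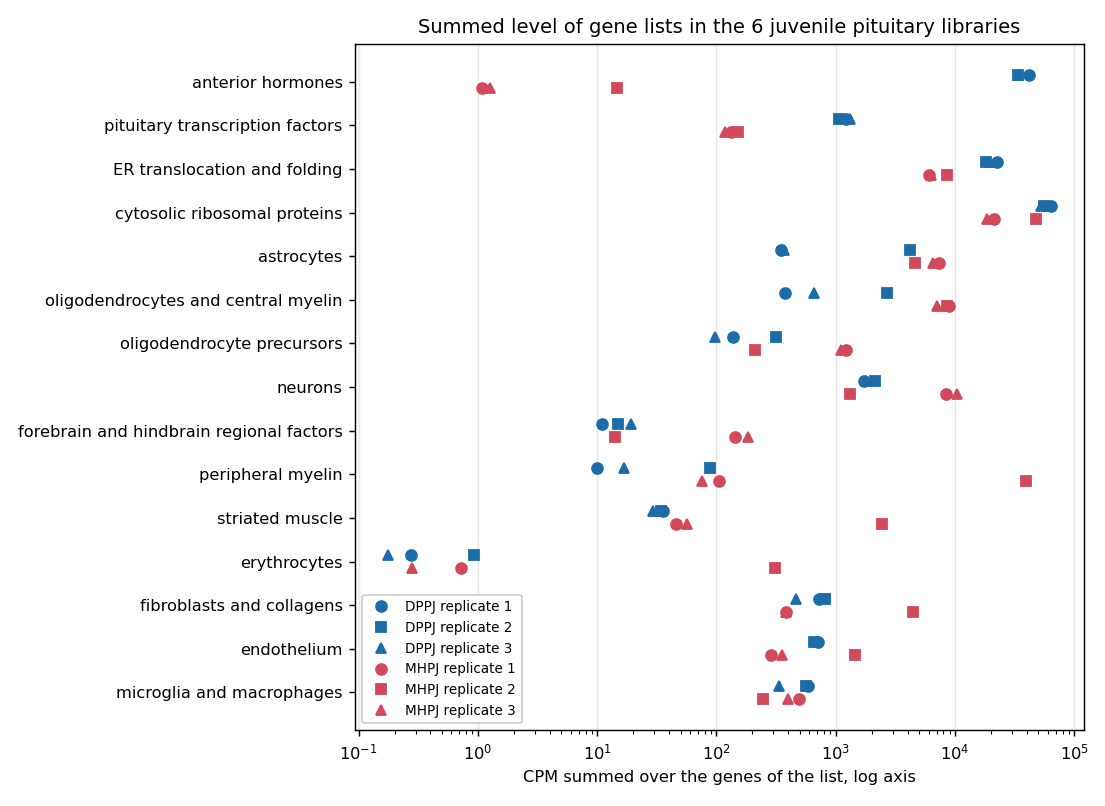
CPM summed over the genes of 15 lists (log axis) in each juvenile pituitary library, with DPPJ in blue, MHPJ in red and the symbol giving the replicate. Anterior hormones sit at 33490 CPM or more in the 3 DPPJ libraries and at 14.6 CPM or less in the 3 MHPJ libraries, and peripheral myelin, striated muscle and erythrocyte genes are high in MHPJ replicate 2.

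In edgeR's quasi-likelihood test, a differentially expressed gene (DEG) had to differ by more than 2-fold with P, before adjustment, under 0.05, and log2 fold changes are DPPJ minus MHPJ. Of the tested genes 2906 were DEGs (19.9%), with 1100 higher (7.53%) and 1806 lower (12.4%) in DPPJ. A Benjamini-Hochberg adjusted p under 0.05 was reached by 571 of the higher (3.91%) and 613 of the lower DEGs (4.2%). Whatever the fold, 1437 genes had an edgeR adjusted p under 0.05, against 2 without DPPJ replicate 1, 9 without DPPJ replicate 3, 135 to 257 without DPPJ replicate 2, MHPJ replicate 1 or MHPJ replicate 3, and 6104 without MHPJ replicate 2. For 5799 genes (39.7%) every library of 1 breed lay above every library of the other. Without MHPJ replicate 2 there were 1915 higher DEGs (12.7%) and 2518 lower DEGs (16.7%) among 15071 genes. Without DPPJ replicate 1 the counts were 898 and 1179 among 15011 genes, and without DPPJ replicate 3 they were 913 and 1195 among 15006. Each of the other fits with 1 library left out gave 958 to 1055 higher and 1728 to 1809 lower DEGs. List counts below that leave out a library moved beside these totals. The median log2 fold change of all tested genes was -0.07. On log2(RPKM + 1) with limma the balance turned, with 1424 higher and 918 lower DEGs, so that 60.8% of DEGs were higher against 37.9% with edgeR. The median of all genes then lay 0.11 above that of the edgeR fit.

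All 7 hormone genes measured were DEGs with higher expression in DPPJ, beside 7.53% of all genes, and each also had an adjusted p under 0.05. PRL (ENSECAG00000000114), which encodes prolactin, had 282660, 215425 and 172434 reads in DPPJ and 3, 11 and 0 reads in MHPJ. Its log2 fold change was 14.85 (SE 1.49, edgeR adjusted p = 0.0116). The size of this fitted value rests on MHPJ libraries at or near 0 reads. The median log2 fold change of the 7 genes was 13.2 with all libraries and 16.76 without MHPJ replicate 2. POMC (ENSECAG00000016388), the precursor of corticotropin and melanotropin, had 129327, 60152 and 33277 reads in DPPJ and 0, 32 and 0 reads in MHPJ, so that its reads in MHPJ came from replicate 2 alone. The FSH beta subunit gene FSHB (ENSECAG00000019116) had 6563, 4470 and 7396 reads in DPPJ and 1 read in all MHPJ libraries together. The ratio of FSHB was 12500, with a 95% counting interval from 2250 to 496000. LHB (ENSECAG00000007548), which encodes the beta subunit of luteinizing hormone, was the hormone gene with the most reads left in MHPJ, with 15, 54 and 16 reads against 2914, 1043 and 799 in DPPJ. Its log2 fold change was 5.13 (SE 1.03, edgeR adjusted p = 0.0386). GH, the somatotroph product, reached 13340, 17160 and 21990 CPM in DPPJ and 0, 3.97 and 0.139 CPM in MHPJ, and CGA, the subunit that the glycoprotein hormones share, 5122, 2494 and 1969 CPM against 0, 1.16 and 0 CPM. The groups did not overlap for any of the 7 genes, beside 39.7% of all tested genes without overlap. For 6 of them, all but TSHB, the highest MHPJ count was that of replicate 2. TSHB had 0 reads in each MHPJ library.

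**Figure D2:**
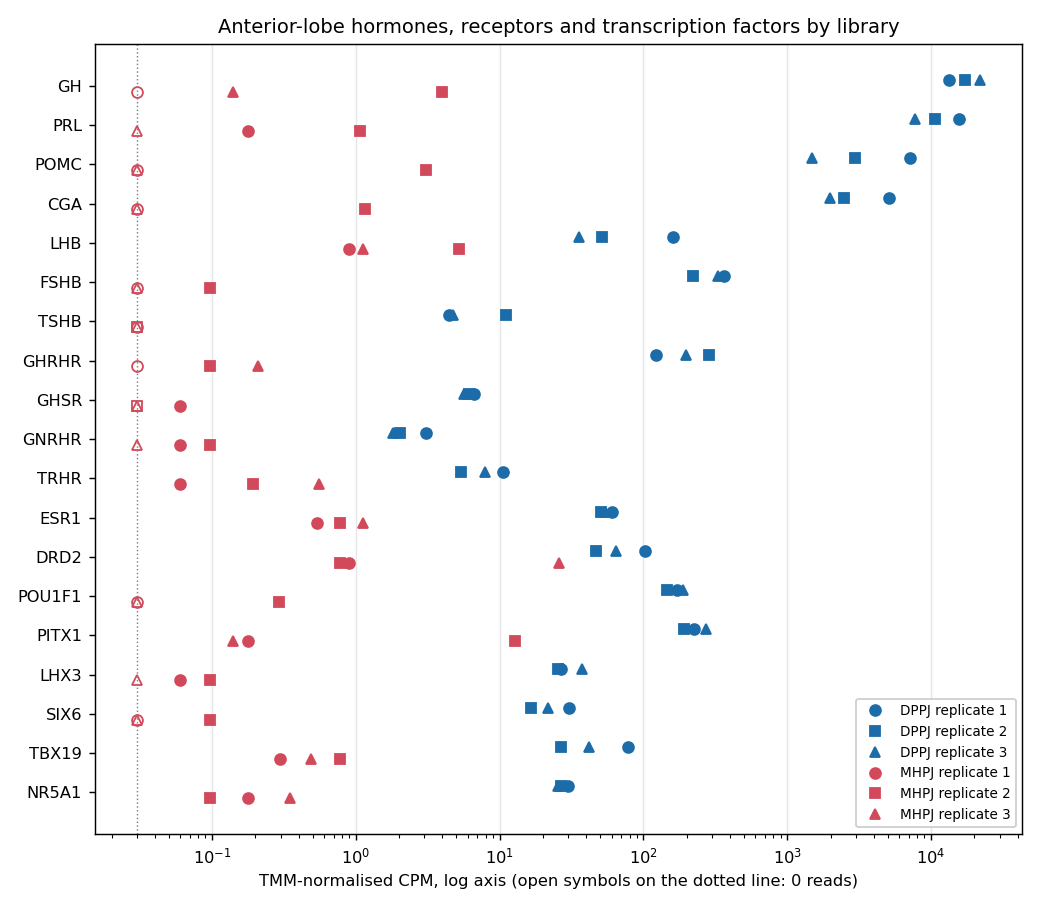
TMM-normalised CPM (log axis) of 7 hormone genes, 6 receptor genes and 6 transcription factor genes, with DPPJ in blue, MHPJ in red, the symbol giving the replicate and open symbols on the dotted line marking 0 reads. For each gene shown the 3 DPPJ libraries lie to the right of the 3 MHPJ libraries. Among all tested genes 39.7% do not overlap, in either direction.

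Receptors through which hypothalamic peptides, dopamine, steroids and prolactin act on endocrine cells were called in part. Of 13 receptor genes tested, 6 were higher (46.2%) and 1 was lower (7.69%) in DPPJ, beside 7.53% and 12.4% of all genes. The 6 all had an adjusted p under 0.05. GHRHR, the receptor for growth hormone-releasing hormone, was at 121.4, 284.3 and 196.4 CPM in DPPJ and had 0, 1 and 3 reads in MHPJ, a ratio of 2110 with a counting interval from 823 to 7740. GHSR, the ghrelin receptor, was at 6.64, 6.15 and 5.61 CPM in DPPJ with 1 read in MHPJ (ratio 253, interval 45.1 to 10000). The receptor of gonadotropin-releasing hormone, GNRHR, was at 3.10, 2.02 and 1.82 CPM and had 2 reads in MHPJ (ratio 47, interval 12.8 to 392). TRHR, the receptor for thyrotropin-releasing hormone, was at 10.6, 5.41 and 7.97 CPM in DPPJ and 0.0597, 0.193 and 0.557 CPM in MHPJ. For these genes every DPPJ library lay above every MHPJ library, while 39.7% of all tested genes did not overlap, in either direction. The estrogen receptor gene ESR1 was at 60.1, 50.8 and 54.2 CPM against 0.537, 0.774 and 1.11 CPM, and its log2 fold change was 6.08 (SE 0.34, edgeR adjusted p = 0.00469). PRLR, the prolactin receptor gene, was at 23.9, 26.1 and 41.7 CPM against 1.13, 1.84 and 0.906 CPM. DRD2, the dopamine receptor that restrains prolactin release, was at 102, 46.8 and 64.3 CPM against 0.895, 0.774 and 25.8 CPM, and was not a DEG (log2 fold change 2.95). The corticotropin-releasing hormone receptor gene CRHR1 was also no DEG, at 26.7, 11.3 and 23.8 CPM against 23.1, 0 and 15.6 CPM. The somatostatin receptor gene SSTR1 was lower in DPPJ at 0.492 CPM or less against 0.87 to 2.23 CPM. It was no longer a DEG when DPPJ replicate 1 or 3 or MHPJ replicate 3 was left out. The receptor list, with MHPJ replicate 2 left out, held 6 higher and 4 lower DEGs among 14 genes.

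Transcription factors that establish or mark anterior-lobe cells were mostly higher in DPPJ. Of 22 such genes tested, 16 were higher (72.7%) and 0 lower in DPPJ, beside 7.53% and 12.4% of all genes. Of the 16, 10 had an adjusted p under 0.05. The median log2 fold change of the list was 3.80 beside -0.07 over all genes. POU1F1, which is required for somatotrophs, lactotrophs and thyrotrophs, was at 172.3, 145.3 and 189.7 CPM in DPPJ and had 0, 3 and 0 reads in MHPJ (ratio 2350, interval 802 to 11400). The early factors LHX3 and SIX6 had 2 reads and 1 read in MHPJ and ratios of 628 (interval 174 to 5190) and 931 (interval 167 to 36800). PITX1, an early homeodomain factor, was at 223.4, 192.8 and 273.8 CPM in DPPJ, while in MHPJ replicate 2 it reached 12.8 CPM against 0.179 and 0.139 CPM in MHPJ replicates 1 and 3 (log2 fold change 5.75, edgeR adjusted p = 0.0923). The corticotroph factor TBX19 was at 78.5, 26.9 and 41.5 CPM in DPPJ and at most 0.774 CPM in MHPJ. The gonadotroph factor NR5A1 was at 30.0, 26.9 and 25.4 CPM in DPPJ and at most 0.348 CPM in MHPJ, with a log2 fold change of 6.95 (SE 0.44, edgeR adjusted p = 0.00623). PAX7, a factor of the intermediate-lobe melanotrophs, was at 14.9, 7.08 and 6.68 CPM against 0.358, 1.26 and 0.279 CPM. EYA1 and NEUROD4 were also higher, by 3.16 and 7.69 on the log2 scale. ISL1 and OTX2 were DEGs that did not hold: ISL1 was lost without any 1 of the DPPJ libraries, and OTX2 without DPPJ replicate 1 (2.24) or MHPJ replicate 3. RXRG and NR4A1 were not DEGs, and neither were the progenitor factors SOX2 and SOX9. SOX2 was, without MHPJ replicate 2, a DEG with lower expression in DPPJ.

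Proteins of the dense-core secretory granule were less uniform. Of 11 granin and prohormone processing genes, 3 were higher (27.3%) and 1 was lower (9.09%) in DPPJ, beside 7.53% and 12.4% of all genes. CHGA, the gene of chromogranin A, was at 4650, 6050 and 4639 CPM in DPPJ and 283.3, 36.3 and 206.1 CPM in MHPJ, with a log2 fold change of 4.87 (SE 0.82, edgeR adjusted p = 0.0270). CHGB was at 14660, 10510 and 5940 CPM against 867.2, 70.0 and 2428 CPM. It did not have an adjusted p under 0.05 and was no longer a DEG when any 1 DPPJ library or MHPJ replicate 1 was left out. PCSK1, which cleaves prohormones, was a DEG (2.39) that was lost when DPPJ replicate 1 or 2 or MHPJ replicate 3 was left out. The list held 1 higher DEG without DPPJ replicate 1 and 1 without DPPJ replicate 2. CPE, the carboxypeptidase that trims the cleaved hormones, was at 704.4, 798.3 and 376.6 CPM against 1944, 78.2 and 2001 CPM, so that MHPJ replicate 2 lay below and the other MHPJ libraries above DPPJ. CPD, a related carboxypeptidase, was lower in DPPJ by a log2 fold change of -1.05, and it was no DEG without TMM normalization, without DPPJ replicate 1 or without MHPJ replicate 3.

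Among 19 genes of the exocytosis machinery, 2 were higher and 2 were lower in DPPJ (10.5% each), near the 7.53% and 12.4% of all genes. RAB27A, a small GTPase that docks secretory granules, was at 348.6, 395 and 270.9 CPM in DPPJ and 5.13, 7.64 and 3.90 CPM in MHPJ. Its log2 fold change of 5.93 had an SE of 0.36 (edgeR adjusted p = 0.00574). SYTL4, which encodes the RAB27 effector granuphilin, was among the genes with the lowest P, at 275.7, 369.9 and 385.1 CPM against 14.1, 13.6 and 16.5 CPM. SYT4, a synaptotagmin gene, was the other higher gene (2.06), and its call was lost when DPPJ replicate 1 or 2 or MHPJ replicate 1 was left out. The synaptic gene CPLX1 was lower, with a log2 fold change of -3.12, and its call was lost when any 1 DPPJ library or MHPJ replicate 1 was left out. The list held, without MHPJ replicate 2, 2 higher and 8 lower DEGs. SNAP25, part of the fusion complex, was at 554.1, 408.1 and 531.1 CPM in DPPJ, and MHPJ lay on both sides of it at 1396, 19.8 and 1462 CPM. The median of this list was -0.34 with edgeR and 0.15 with limma on log2(RPKM + 1).

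Genes that move new proteins into the endoplasmic reticulum (ER) and fold them there were higher in DPPJ. Of 33 such genes 20 were higher (60.6%) and 0 lower, beside 7.53% and 12.4% of all genes. The median log2 fold change was 1.35, and 17 of the 20 had an adjusted p under 0.05. The count of higher genes stayed between 18 and 23 when any 1 library was left out. PDIA3, a disulfide isomerase, was at 3031, 2388 and 2446 CPM in DPPJ and 461.9, 575.4 and 429.1 CPM in MHPJ, and its log2 fold change was 2.42 (SE 0.22, edgeR adjusted p = 0.0104). HSPA5, the main ER chaperone, was at 2264, 1613 and 2028 CPM against 405.2, 427.1 and 442.6 CPM. HSP90B1, which encodes endoplasmin, was at 6820, 5620 and 5904 CPM against 1620, 2085 and 1707 CPM and belonged to the 10 genes with the most reads in DPPJ. For CALR, the gene of the lectin chaperone calreticulin, the log2 fold change was 1.72. P4HB, at 1098, 866.9 and 1072 CPM against 222.6, 637.2 and 214.4 CPM, was a DEG in the full set that was lost without DPPJ replicate 1, DPPJ replicate 3, MHPJ replicate 1 or MHPJ replicate 3. For PDIA3, HSPA5 and HSP90B1 every MHPJ library, replicate 2 included, lay below every DPPJ library. Among all tested genes 39.7% did not overlap, in either direction.

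Cytosolic ribosomal protein genes were higher in DPPJ in numbers that moved with the library set and the test. Of 65 tested, 23 were higher (35.4%) and 0 lower, beside 7.53% and 12.4% of all genes. Of the 23, 8 had an adjusted p under 0.05. Of the 65, 63 had a log2 fold change above 0, and the median was 0.95. The genes summed to 63480, 55750 and 53110 CPM in DPPJ and to 21270, 47520 and 18400 CPM in MHPJ, so that MHPJ replicate 2 lay nearer to DPPJ than to the other MHPJ libraries. RPL35, for example, was at 4300, 3488 and 3376 CPM against 1169, 2308 and 1028 CPM. Without MHPJ replicate 2 the number rose to 56 and the median to 1.44, and without MHPJ replicate 1 the number fell to 15. With all libraries kept it was 49 of 68 with limma at either pseudocount. Single ribosomal protein genes share sequence with processed copies elsewhere in the genome, so their separate values are uncertain. Nuclear genes of oxidative phosphorylation had a median log2 fold change of 0.03, with 2 of 56 higher (3.57%) and 1 lower (1.79%). Both shares lay below the 7.53% and 12.4% of all genes. The mitochondrially encoded genes took 7.43% to 10.1% of reads in DPPJ and 10.1% to 18.1% in MHPJ, and MT-CO1, a subunit of cytochrome c oxidase, had the most reads in both groups. Among the mitochondrially encoded genes, MT-ND2 and ND1, subunits of complex I, were lower by -1.51 and -1.38 on the log2 scale, and both calls were lost without MHPJ replicate 3.

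Transcripts of posterior-lobe hormones came mostly from DPPJ replicate 2. AVP, the vasopressin gene, had 71, 4647 and 3 reads in DPPJ and 1, 0 and 1 reads in MHPJ. OXT, which encodes oxytocin, had 0, 56 and 0 reads in DPPJ and 0 reads in each MHPJ library. Neither gene passed the filter on low counts, and no test was made. DPPJ replicate 2 was also the DPPJ library with the most GFAP and MBP. In the same library the fibrinogen genes FGB, FGA and FGG, known for expression in the liver, had 5097, 2747 and 2673 reads, against at most 7 in each other DPPJ library, and APOA4 had 1567 reads against 0. Of 5 pituicyte markers tested, TBX3 was higher in DPPJ (1.86, edgeR adjusted p = 0.0370) and 0 were lower, while 3 of the 5 had a log2 fold change below 0. The 8 pituicyte markers found summed to 66.4, 54.6 and 33.2 CPM in DPPJ and 93.5, 270.5 and 166.1 CPM in MHPJ. RAX, a factor of hypothalamic and pituicyte lineages, had 86, 31 and 10 reads in DPPJ and 4 reads in all of MHPJ, and was not tested. Among hypothalamic peptides, CARTPT was higher in DPPJ (3.14), a call that was lost without DPPJ replicate 2 or MHPJ replicate 1. VIP, the gene of vasoactive intestinal peptide, was lower at 0.221, 0.147 and 0.134 CPM against 17.1, 110.9 and 20.6 CPM (log2 fold change -8.16, edgeR adjusted p = 0.0186). PENK, which encodes enkephalins, ranged from 17.3 to 76.8 CPM in DPPJ and was at 341.4, 16.2 and 843.9 CPM in MHPJ, and was a DEG without MHPJ replicate 2 but not with all libraries.

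Glial genes were lower in DPPJ, with spread inside both groups. Of 16 oligodendrocyte and central myelin genes 10 were lower (62.5%) and 0 higher, beside 12.4% and 7.53% of all genes. Of the 10, 2 had an adjusted p under 0.05. All 16 had a log2 fold change below 0, with a median of -3.06. CNP, an enzyme of myelin, was at 58.2, 168.3 and 68.8 CPM in DPPJ and 698.1, 1021 and 500 CPM in MHPJ (log2 fold change -2.91, SE 0.53, edgeR adjusted p = 0.0310). MBP, the gene of myelin basic protein, was at 86.2, 1128 and 274.3 CPM against 3333, 3000 and 2597 CPM, and it was no longer a DEG without DPPJ replicate 3 or without any 1 MHPJ library. OPALIN, which is specific to central myelin, was at 383.5 and 497.4 CPM in MHPJ replicates 1 and 3 but at 1.64 CPM in MHPJ replicate 2, within the DPPJ range of 1.22 to 28.0 CPM. The number of lower genes in this list was 12 without DPPJ replicate 2, 10 without MHPJ replicate 2 and 5 without DPPJ replicate 3, and it was 0 when all 12 pituitary libraries were fitted together, where the median was -3.04. Of 8 genes of oligodendrocyte precursors 4 were lower (50%, beside 12.4% of all genes), 1 of them with an adjusted p under 0.05. Among the 4 were SOX6 (-2.60, edgeR adjusted p = 0.0244) and PDGFRA (-2.54). PTPRZ1, a phosphatase of the same list, lost its call without any 1 of the libraries other than MHPJ replicate 2. The list gave 2 lower genes without DPPJ replicate 1 or 3 and 7 without MHPJ replicate 2.

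For astrocytes, 3 of 16 genes were lower (median -2.58), and 8 were lower without MHPJ replicate 2 and 7 without DPPJ replicate 2, but 1 without DPPJ replicate 1 or 3. With all libraries DESeq2 gave 10 lower. The edgeR share, 18.8%, stands beside 12.4% of all genes, and 1 of the 3 had an adjusted p under 0.05. GLUL, glutamine synthetase, was at 54.6, 123.3 and 43.0 CPM in DPPJ and 572.7, 536.6 and 419.9 CPM in MHPJ (log2 fold change -2.79, SE 0.45, edgeR adjusted p = 0.0257). SLC1A2, the glial glutamate transporter, was at 7.08, 8.36 and 2.89 CPM against 240.2, 1.45 and 297 CPM, and remained a DEG in only 1 of the fits with a library left out, that without MHPJ replicate 2. GFAP, the filament protein of astrocytes, was at 20.0, 2439 and 123.8 CPM in DPPJ and 2285, 56.2 and 1857 CPM in MHPJ, so each group held high and low libraries, and it was not a DEG. S100B, which Schwann cells also express, peaked at 3772 CPM in MHPJ replicate 2. Of the 15 microglia and macrophage genes, 1 was lower (TMEM119) and 0 were higher, a lower share of 6.67% beside 12.4% of all genes. The call of TMEM119 was lost without any 1 of the libraries other than MHPJ replicate 2.

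Neuronal genes were high in MHPJ replicates 1 and 3 and low in MHPJ replicate 2. Of 20 tested, 8 were lower in DPPJ (40%) and 0 higher (median -2.46), beside 12.4% and 7.53% of all genes. Of the 8, 2 had an adjusted p under 0.05. Without MHPJ replicate 2, 18 of 21 were lower, beside 16.7% of all genes. With another library left out the number was 3 to 5, and with all libraries it was 3 with limma and 14 with DESeq2. TUBB3, a neuronal tubulin, was at 36.8, 67.2 and 37.4 CPM in DPPJ and 412.6, 153.2 and 405.6 CPM in MHPJ (log2 fold change -2.78, SE 0.49, edgeR adjusted p = 0.0286). CAMK2A, a kinase of excitatory forebrain synapses, was at 12.4, 15.2 and 4.14 CPM against 400.1, 3.19 and 942.4 CPM, and its call was lost without any 1 DPPJ library or MHPJ replicate 3. GAD1, which makes the transmitter GABA, was at 454.9 and 162.2 CPM in MHPJ replicates 1 and 3 and at 14.3 CPM or less in the other 4 libraries. EMX1, a factor of the dorsal forebrain, had 3 reads in all of DPPJ and was at 2.75, 3.48 and 6.13 CPM in MHPJ (ratio 83.2, interval 28.0 to 408). DDN, which encodes the dendritic protein dendrin, had 1617, 5 and 2053 reads in MHPJ and 3, 2 and 1 reads in DPPJ. Of 8 regional factors tested 3 were lower (37.5%) and 1 higher (12.5%), beside 12.4% and 7.53% of all genes. Of the 3, 1 had an adjusted p under 0.05. The lower count was 6 without MHPJ replicate 2 and 1 without DPPJ replicate 1, DPPJ replicate 2, MHPJ replicate 1 or MHPJ replicate 3. LMX1A was the regional factor that was higher in DPPJ, by 3.25.

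Receptors and channels of neurons moved with these genes. Of 30 glutamate and GABA receptor genes 13 were lower (43.3%) and 1 higher (3.33%) in DPPJ, beside 12.4% and 7.53% of all genes. The median was -2.22, and 4 of the 13 and the higher gene had an adjusted p under 0.05. There were 20 lower and 2 higher without MHPJ replicate 2 and 5 to 7 lower with another library left out. With limma on log2(RPKM + 1) 4 were lower. GRIA3, a glutamate receptor subunit, was at 9.73, 8.85 and 6.81 CPM in DPPJ and 134.7, 67.3 and 242.6 CPM in MHPJ (log2 fold change -4.13, SE 0.53, edgeR adjusted p = 0.0167). GABRQ, the theta subunit of GABA receptors, went the other way at 9.95, 9.84 and 12.6 CPM against 0.597, 0.193 and 0.209 CPM. Of 44 voltage-gated channel genes 13 were lower (29.5%) and 2 higher (4.55%), beside 12.4% and 7.53% of all genes. Of these, 2 lower and 2 higher genes had an adjusted p under 0.05. Without MHPJ replicate 2, 31 were lower and 4 higher, and the lower count was 6 without DPPJ replicate 1, 7 without MHPJ replicate 3 and 8 without DPPJ replicate 2 or MHPJ replicate 1. With all libraries it was 4 with limma on log2(RPKM + 1), 5 with the replicate number as a block and 23 with DESeq2. KCND3, a potassium channel gene, was at 0.608, 1.77 and 3.25 CPM against 35.1, 22.1 and 45.2 CPM. KCNH6, of another potassium channel family, had 109, 118 and 191 reads in DPPJ and 2 reads in MHPJ (ratio 142, interval 39.1 to 1180). Of 58 axon guidance genes 21 were lower (36.2%) and 3 higher (5.17%), with a median of -1.33. Of these, 10 lower and 0 higher genes had an adjusted p under 0.05. The ephrin receptor gene EPHA5 was lower by -3.77 on the log2 scale, at 5.97, 8.06 and 7.92 CPM against 139.3, 31.7 and 128.5 CPM. ROBO2, the receptor of Slit proteins, was lower by -3.35, a call that was kept only in the fit without MHPJ replicate 2 among those with a library left out.

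**Figure D3:**
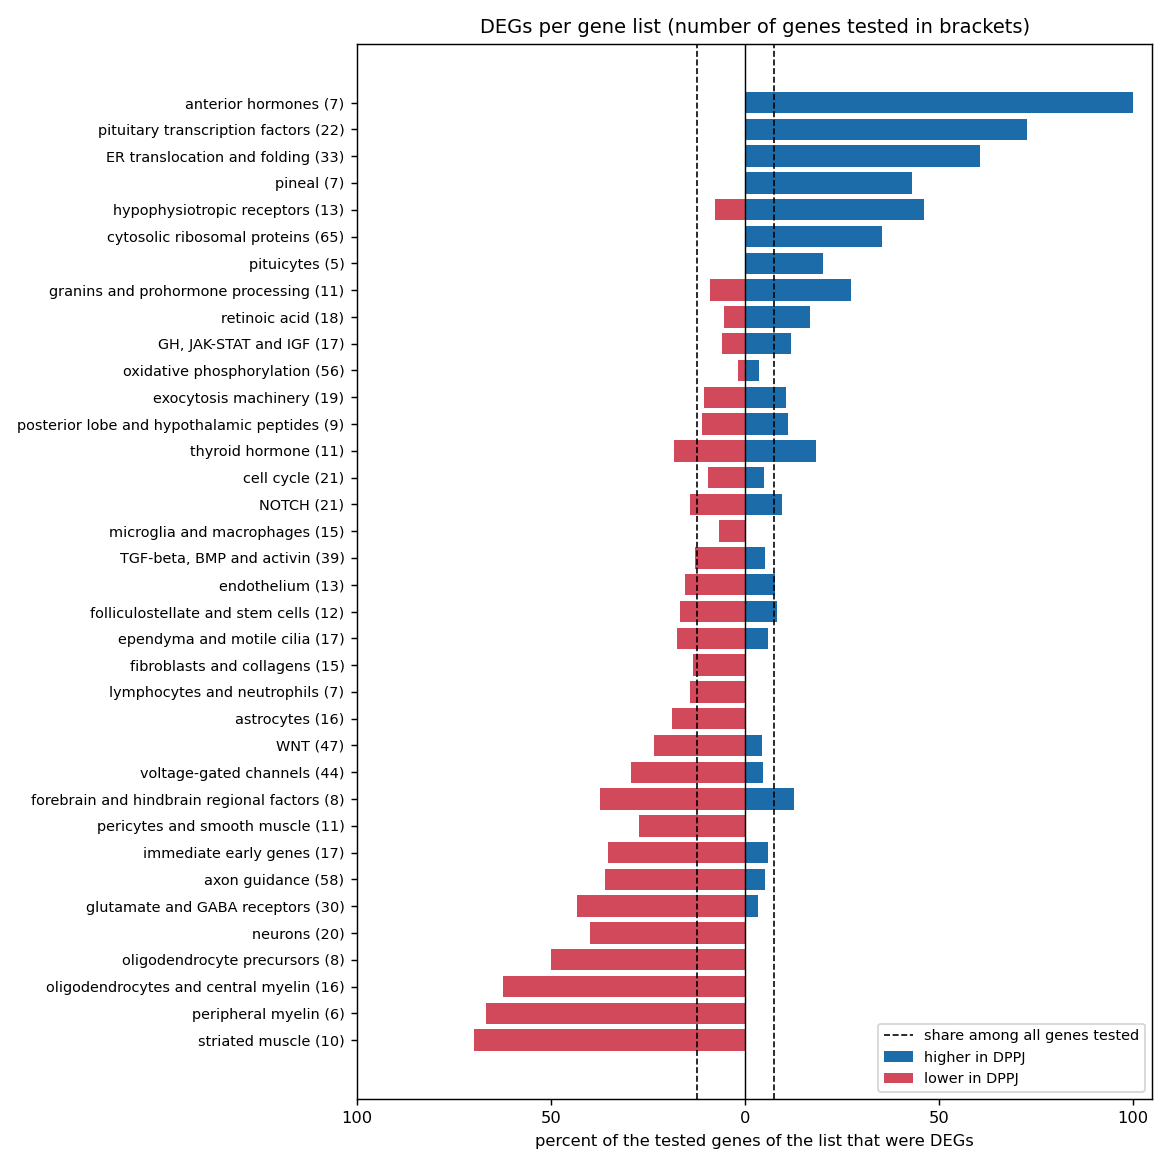
Percent of the tested genes of each list that were DEGs, with genes higher in DPPJ to the right in blue and genes lower in DPPJ to the left in red, and dashed lines at the share among all tested genes (7.53% higher and 12.4% lower). Hormones, transcription factors and ER genes extend to the right, and muscle, myelin and neuronal genes to the left.

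MHPJ replicate 2 carried gene groups that were near 0 in the other libraries. PRX, the Schwann cell protein periaxin, was at 5583 CPM against 7.52 and 13.4 CPM in MHPJ replicates 1 and 3 and 1.97 CPM or less in DPPJ. Its log2 fold change was -10.73 with all libraries and -3.24 without that library, and the call was lost without any 1 DPPJ library. PMP22 behaved alike, at 2047 CPM against 22.1 and 12.8 CPM and with log2 fold changes of -7.21 and -1.88. Of the 6 peripheral myelin genes tested 4 were lower in DPPJ (66.7%, beside 12.4% of all genes). Of the 4, 0 had an adjusted p under 0.05. Without MHPJ replicate 2, 4 were lower and 1 higher, and 0 to 2 were lower without 1 of the DPPJ libraries. Striated muscle genes were the list with the largest share called lower, 7 of 10 (70%, beside 12.4% of all genes). Of the 7, 0 had an adjusted p under 0.05. CKM, muscle creatine kinase, was at 552 CPM in MHPJ replicate 2 and at 2.09 CPM or less elsewhere, and its log2 fold change of -6.95 became 0.05 without that library. TTN, which encodes titin, moved from -4.95 to -0.11, and NEB, the gene of nebulin, from -5.37 to -2.06. Without that library the muscle list gave 3 higher and 5 lower genes, and without 1 of the DPPJ libraries 1 or 2 lower genes. With limma on log2(RPKM + 1) 0 muscle genes and 1 peripheral myelin gene were lower. HBB, a hemoglobin gene, had 2394 reads in MHPJ replicate 2 and at most 11 in any other library. BPIFA2, which encodes a protein of saliva, had 123218 reads in that library, 3 in MHPJ replicate 3 and 0 in the other 4. CA6, the secreted carbonic anhydrase of saliva, had 9751 reads there and at most 39 elsewhere, and KRT13, a keratin of stratified epithelium, 1145 reads and at most 7 elsewhere. HBB, BPIFA2, CA6 and KRT13 did not pass the filter and were not tested. Genes that were not tested took 3.86% of the reads of MHPJ replicate 2 and at most 0.232% in each other library.

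Genes of vessels and connective tissue depended on the same library. PLVAP, which forms the diaphragms of fenestrated capillaries, was at 346.4, 270.3 and 266.9 CPM in DPPJ and 14.2, 51.9 and 26.9 CPM in MHPJ (log2 fold change 3.25, SE 0.51, edgeR adjusted p = 0.0245). The general endothelial genes did not share this pattern. PECAM1 was at 94.6, 83.3 and 75.5 CPM in DPPJ and 33.7, 244.5 and 38.3 CPM in MHPJ, and the receptor tyrosine kinase gene TIE1 was lower by -1.14, with the list at 1 higher and 2 lower of 13. Its shares, 7.69% higher and 15.4% lower, were near the 7.53% and 12.4% of all genes. The endothelial list held, without MHPJ replicate 2, 4 higher and 1 lower gene, with 1 lower also without any 1 DPPJ library and 4 lower without MHPJ replicate 1. Of 15 fibroblast and collagen genes 0 were higher and 2 lower (13.3%), with a median of -1.70, and without MHPJ replicate 2, 8 were higher and 2 lower, with a median of 1.60. COL1A2, for example, was at 44.9, 57.8 and 20.4 CPM in DPPJ and 15.4, 792.5 and 4.04 CPM in MHPJ. The median of the endothelial list and that of the 11 pericyte and smooth muscle genes also changed sign, from -1.14 to 0.10 and from -1.58 to 0.23. EPCAM, an adhesion protein of epithelial cells, was higher in DPPJ at 658.2, 639 and 712.3 CPM against 3.64, 45.6 and 6.55 CPM (log2 fold change 5.18, edgeR adjusted p = 0.0426). Of 21 cell cycle genes 1 was higher, the cyclin gene CCNA2 (1.46), and 2 were lower. These shares, 4.76% and 9.52%, lay below the 7.53% and 12.4% of all genes. The lower genes were CENPF, whose call was lost without DPPJ replicate 2, DPPJ replicate 3, MHPJ replicate 1 or MHPJ replicate 2, and RRM2, whose call held only without MHPJ replicate 1 among the fits with 1 library left out.

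**Figure D4:**
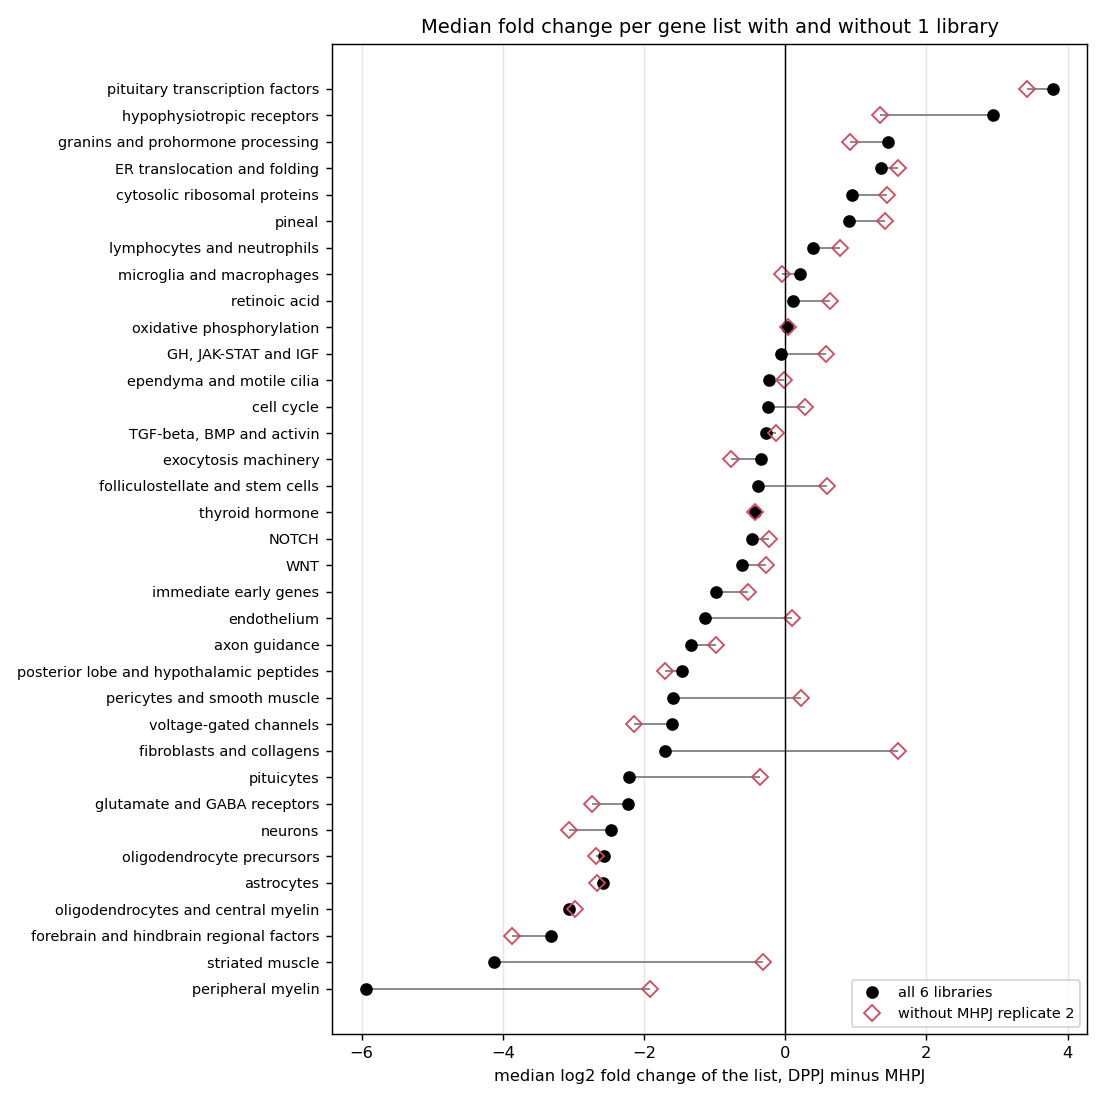
Median log2 fold change (DPPJ minus MHPJ) of each list with all 6 libraries (black circles) and without MHPJ replicate 2 (open red diamonds). The fibroblast median goes from -1.70 to 1.60 and the striated muscle median from -4.12 to -0.32, while the ER, astrocyte and oligodendrocyte medians move little. The hormone list is left out because its fitted values rest on libraries at or near 0 reads.

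Of 18 genes of the retinoic acid pathway 3 were higher (16.7%) and 1 lower (5.56%) in DPPJ, beside 7.53% and 12.4% of all genes, with a median log2 fold change of 0.11. ALDH1A1 and ALDH1A2, enzymes that make retinoic acid, were at 1223, 1358 and 1190 CPM against 274.8, 199.9 and 131.8 CPM and at 74.0, 98.5 and 118 CPM against 4.77, 2.90 and 3.07 CPM. The log2 fold change of ALDH1A2 was 4.75 (SE 0.32, edgeR adjusted p = 0.00721). RBP4, which carries retinol, was higher by 5.39, at 9.35, 21.2 and 20.5 CPM against 0.298, 0.580 and 0.348 CPM. These were the 3 higher genes. The third enzyme, ALDH1A3, was the lower one, but at 2.92, 55.9 and 0.697 CPM in MHPJ its call rested on replicate 2 and was also lost without any 1 DPPJ library. Without MHPJ replicate 2 the list held 5 higher and 2 lower genes. DLK1, a noncanonical Notch ligand, was at 724.5, 710.3 and 934.9 CPM in DPPJ and had 0 reads in MHPJ replicates 1 and 3, with 3.67 CPM in MHPJ replicate 2 (log2 fold change 9.43, SE 1.96, edgeR adjusted p = 0.0419). HEY2, a Notch target, was also higher (1.86), whereas the receptor gene NOTCH1 was lower at 4.98, 6.49 and 6.14 CPM against 20.4, 44.6 and 24.9 CPM. Of 21 NOTCH pathway genes 2 were higher (9.52%) and 3 lower (14.3%), near the shares among all genes, with 1 lower without DPPJ replicate 1 or 3.

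The growth hormone and insulin-like growth factor (IGF) pathway showed few calls. Of 17 genes 2 were higher (11.8%) and 1 lower (5.88%), beside 7.53% and 12.4% among all genes, and 1 was higher without DPPJ replicate 3, MHPJ replicate 1 or MHPJ replicate 3. CISH, a feedback inhibitor that STAT5 induces, was at 8.74, 7.28 and 7.34 CPM in DPPJ and 1.55, 1.84 and 0.906 CPM in MHPJ (log2 fold change 2.44, SE 0.38, edgeR adjusted p = 0.0232). GHR, the receptor of growth hormone, was at 29.7, 27.1 and 35.2 CPM against 9.49, 21.4 and 10.7 CPM, with a log2 fold change of 1.15 that was no longer a DEG without DPPJ replicate 3, MHPJ replicate 1 or MHPJ replicate 3. The lower gene, IGF1, was at 1.77, 1.77 and 0.890 CPM in DPPJ and 3.46, 6.38 and 2.65 CPM in MHPJ (log2 fold change -1.49, SE 0.51, edgeR adjusted p = 0.115). It was no DEG without MHPJ replicate 2, DPPJ replicate 1 or DPPJ replicate 3. Without MHPJ replicate 2 the list held 7 higher and 0 lower genes, and its median went from -0.06 to 0.58. Of 11 thyroid hormone genes 2 were higher and 2 lower (18.2% each), beside 7.53% and 12.4% of all genes. The higher ones were TRHR, described above and the only one with an adjusted p under 0.05, and the transporter gene SLC16A10 (1.36), and the lower ones were TRHDE (-2.95) and THRA. The receptor gene THRA was at 142.5, 185.7 and 163.2 CPM against 407.6, 244.4 and 605.1 CPM, and its call was lost without MHPJ replicate 3. The list held 1 higher and 1 lower gene without any 1 DPPJ library or MHPJ replicate 1.

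Of 47 WNT pathway genes 11 were lower (23.4%) and 2 higher (4.26%) in DPPJ, beside 12.4% and 7.53% of all genes. The lower count was 6 without DPPJ replicate 1 or 3. LEF1, a transcription factor of the pathway, was at 6.80, 13.3 and 5.56 CPM against 23.7, 35.2 and 29.6 CPM (log2 fold change -1.79), and the receptor gene FZD6 was higher at 43.1, 40.5 and 35.4 CPM against 15.2, 16.9 and 9.82 CPM. The pathway gave, without MHPJ replicate 2, 9 lower and 5 higher genes. SFRP1, a secreted inhibitor, went from -2.78 to -0.81 without it and was then no DEG. Of 39 genes of TGF-beta, BMP and activin signalling 5 were lower (12.8%) and 2 higher (5.13%), beside 12.4% and 7.53% of all genes, with 3 lower without DPPJ replicate 1 or 3, 1 higher without DPPJ replicate 1 or MHPJ replicate 1 and 5 higher without MHPJ replicate 2. INHBA, the activin A subunit, was lower with 20, 40 and 16 reads against 565, 60 and 172 reads (log2 fold change -3.76, SE 0.81, edgeR adjusted p = 0.0440).

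Of 17 immediate early genes 6 were lower (35.3%) and 1 higher (5.88%) in DPPJ, beside 12.4% and 7.53% of all genes. Of these calls 0 had an adjusted p under 0.05. The higher gene was BTG2, a call lost without DPPJ replicate 2 or MHPJ replicate 3. EGR2, which is also in the peripheral myelin list, had 1015 reads in MHPJ replicate 2 and at most 77 in each other juvenile library. JUN was at 27.8, 52.0 and 20.4 CPM in DPPJ and 70.8, 79.1 and 88.2 CPM in MHPJ, and its call was lost without DPPJ replicate 1 or 3. Without these libraries 3 and 2 genes of the list were lower.

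For the 15 higher and 15 lower genes with a symbol that had the lowest P, the values are a description, since these genes were chosen by this same test. CNGA3, a cyclic nucleotide-gated channel gene, had the lowest P of all genes with a symbol. It was at 49.9, 57.6 and 43.5 CPM in DPPJ and 0.239, 0.193 and 0.209 CPM in MHPJ (log2 fold change 7.82, SE 0.27, edgeR adjusted p = 0.00153). MSX1, a homeodomain factor, was at 196.2, 201.9 and 220 CPM against 2.92, 5.42 and 3.62 CPM. VDR, the vitamin D receptor gene, was at 23.9, 18.5 and 27.9 CPM against 0.418, 0.871 and 0.488 CPM. PLAGL1, an imprinted zinc finger gene in other mammals, was at 183.8, 179.5 and 250.9 CPM against 10.0, 14.2 and 13.9 CPM. WBP5 was at 190.8, 195.9 and 188.9 CPM against 24.9, 22.3 and 21.5 CPM. The other genes with higher expression in this set were SYTL4, ESR1, FSHB, RAB27A, NR5A1, LHX3, ALDH1A2, PLA2G4F, PRSS35 and TMEM184A.

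Among the 15 lower genes with the lowest P, several are known for roles in neurons. CDHR3, a cadherin-related gene, came first with 12, 12 and 17 reads in DPPJ and 218, 150 and 260 reads in MHPJ (log2 fold change -4.49, SE 0.30, edgeR adjusted p = 0.00721). NTNG1, the axon guidance gene of netrin-G1, was at 7.85, 7.03 and 8.46 CPM against 44.3, 56.7 and 45.1 CPM. Septin 3, a neuronal septin whose symbol the table holds as the date 3-Sep, was at 14.9, 22.7 and 22.4 CPM against 154.8, 181.7 and 244.4 CPM. CNKSR2, a scaffold protein of synapses, was at 11.8, 11.9 and 16.3 CPM against 298.5, 188.1 and 436.9 CPM. TUBA1A, a tubulin of developing neurons, was also in this set, as was SORT1, the gene of the sorting receptor sortilin, with a log2 fold change of -1.84. VIT, which encodes the matrix protein vitrin, was at 3.10, 2.85 and 1.74 CPM against 40.5, 96.0 and 78.6 CPM. KLHL3, MID1IP1, PIK3C2B, ZBTB47, CELF2, KIAA1549L, NAV3 and PRRC2B completed the set, with log2 fold changes from -3.88 to -1.49.

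Libraries short of hormone transcripts also occurred among the adults, in both breeds. The 7 hormone genes summed to 112.4, 39140 and 19950 RPKM in DPPA replicates 1 to 3 and to 7.66, 35540 and 36050 RPKM in MHPA replicates 1 to 3, beside 37800 to 53090 RPKM in DPPJ and 1.42 to 18.4 RPKM in MHPJ. RPKM is the deposited read density, scaled for gene length and library size. DPPA replicate 1 and MHPA replicate 1 had astrocyte sums of 6910 and 5786 RPKM, against 221 to 507.6 RPKM in the other 4 adult libraries. In DPPA replicate 1 AVP was at 2106 RPKM, against 7.59 RPKM or less in the other adult libraries. POU1F1 was at 0.06 and 0 RPKM in these 2 libraries and at 67.3 to 170.8 RPKM in the other 4.

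**Figure D5:**
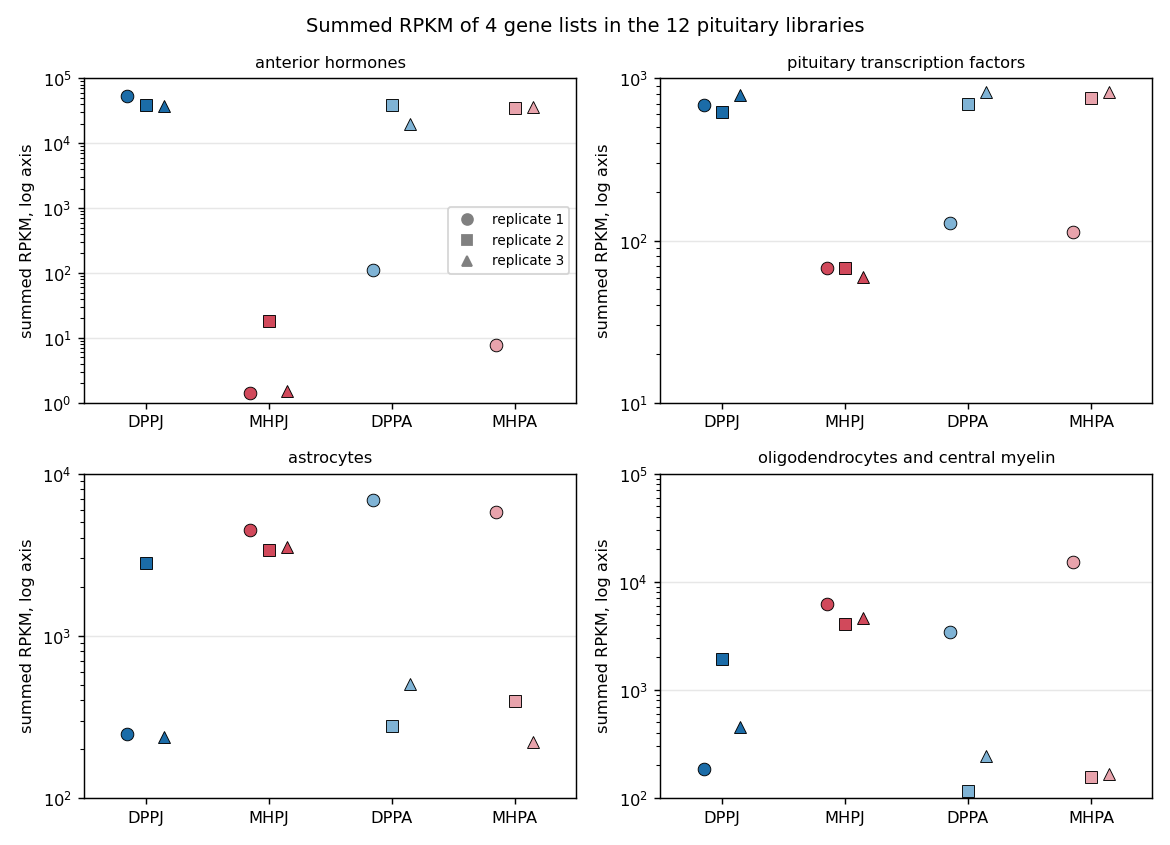
Deposited RPKM summed over 4 gene lists (log axes) in the 12 pituitary libraries, grouped by breed and stage, with the symbol giving the replicate. The 3 MHPJ libraries and the replicate 1 libraries of both adult groups are low for hormones and transcription factors and high for astrocyte and oligodendrocyte genes. DPPJ replicate 2, which is high for hormones, is also raised for astrocyte (2818 RPKM) and oligodendrocyte genes (1911 RPKM).

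Whether the difference between the breeds differed between juveniles and adults was tested as an interaction over the 12 pituitary libraries. Among 15200 genes, 2345 had an unadjusted P under 0.05 and an interaction beyond 1 on the log2 scale (15.4%). With edgeR 0 genes had an adjusted p under 0.05 (0%), the lowest being 0.122, while 3059 had an unadjusted P under 0.05. DESeq2 gave 1174 genes with an adjusted p under 0.05. In edgeR that number became 310 when MHPJ replicate 2 was dropped, 5 when MHPA replicate 1 was dropped and 2 when DPPA replicate 1 was dropped. The lowest P was that of PRLR, which had 432, 530 and 936 reads in DPPJ, 19, 19 and 13 in MHPJ, 196, 494 and 528 in DPPA and 1417, 649 and 518 in MHPA. Its interaction was 6.15 on the log2 scale (SE 0.78, edgeR adjusted p = 0.122). MSX1 came next, with an interaction of 6.32. It had 49, 56 and 52 reads in MHPJ, while each of the other 9 libraries had 641 to 4943 reads, the 2 adult libraries with few hormone transcripts included. One of these 2, MHPA replicate 1, had the most PRLR reads and differed in content from all other pituitary libraries. Its list of ependyma and motile cilia genes, TTR included, summed to 12450 RPKM, against 226.3 RPKM or less in each of the others. The part of TTR in this sum is not given apart, so it does not speak for the cilia genes alone. Whether tissue content underlies the PRLR and MSX1 interactions was not tested. VIT and DLGAP1, the gene of a synaptic scaffold, had interactions of -6.98 and -4.98, and RBP4 one of 6.01. None of these passed the adjustment over all genes.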

How the data were processed

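RNA was taken from pituitaries of 3 horses a group, depleted of ribosomal RNA and sequenced as directional libraries. The authors mapped the reads to the horse genome EquCab 3.0, and name Salmon, run on reference cDNA, for transcript values. The submitters' processing notes list TopHat2 and edgeR. Which of these made the tables used here, and the gene annotation, are not given in the sources used here. The deposited counts are reads per gene, not normalized, and the deposited RPKM values are reads that the authors scaled for gene length and library size. The labels and the study's methods name different sequencing instruments and read layouts. No genome sequence was used, so no coordinates are given, and 8077 of 24232 genes have no symbol. For 5 genes an older symbol was matched.

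Genes were kept by filterByExpr (minimum count 10), scaled by TMM and tested with edgeR 4.0.16 (R 4.3.3, robust quasi-likelihood test, two-sided), with Benjamini-Hochberg adjustment over all genes tested. DEGs needed more than a 2-fold difference with P, before adjustment, under 0.05. An interaction model covered 12 pituitary libraries. The filter asks for expression in at least 3 libraries, so a gene with reads in 1 library and near 0 in the others does not pass. Where a group had at most 3 reads per library, a ratio with a 95% interval, which covers counting error only, replaces the fitted fold. Alternatives were DESeq2 1.42.0, limma 3.58.1 on log2(RPKM + 1) and log2(RPKM + 0.1), other scaling, filters, a replicate block and leaving out each library. For 3 against 3 libraries the smallest exact permutation p is 0.1.

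The comparison and the gene lists were chosen with earlier results of these data known. The text names hormones, called receptors and factors, the called genes with the highest mean CPM of each list, the 15 genes with the lowest P each way, the 10 with the most reads in each group, and genes at or near 0 reads in 1 group. Genes outside this rule (DRD2, CRHR1, CPE, SNAP25, PENK, GFAP, GAD1, OPALIN, S100B, PECAM1, COL1A2, RXRG, NR4A1, SOX2, SOX9, RAX, OXT and those named as high in 1 library) were chosen after their values were seen. On simulated counts, 99% and 100% of juvenile changes of 2 and 4 on the log2 scale were called among 14500 genes, and 1.1% of unchanged genes. For the interaction 97% and 100% were called among 15014 genes, and 4.52% of unchanged genes. The simulated counts had the same spread for all genes and no library unlike its group, and only genes well above the filter were changed. These rates therefore check the code and do not give the error rates in the real libraries, where MHPJ replicate 2 stood apart. Some results are not reported here.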

Additional observations from a re-analysis of the deposited data

How the results depend on the processing

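The count of juvenile pituitary DEGs was 1184 when an adjusted p under 0.05 was also required, with 571 higher and 613 lower. With limma, log2(RPKM + 0.1) gave 1894 higher DEGs and log2(RPKM + 1) gave 918 lower DEGs. With 1 library left out, all DEGs ranged from 2077 (without DPPJ replicate 1) to 4433 (without MHPJ replicate 2), higher DEGs from 898 to 1915 and lower DEGs from 1179 to 2518. The lower count was also low without DPPJ replicate 3, at 1195. Calls for the breed by stage interaction in the pituitary ranged from 1333 (without DPPA replicate 1) to 3821 (without MHPA replicate 1). Without TMM normalization the interaction calls were 1796 above and 935 below 0, against 1014 and 1331. The cause of these shifts was not tested. Of 1960 values of 198 named genes under alternatives that kept all libraries, 1799 kept their call, 161 lost it and 0 reversed. With 1 library left out, 932 of 1188 values kept the call, 255 lost it and 1 lost it with a change of sign, that of CKM ENSECAG00000022433, whose log2 fold change ranged from -7.519 (without MHPJ replicate 1) to 0.049 (without MHPJ replicate 2).

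Replicate numbers are only shared numbers here. The correlations of deviations between same-numbered libraries were -0.0718, -0.0903 and 0.00698. With the replicate number as a block, there were 1094 higher and 1333 lower DEGs among the juvenile pituitary DEGs, 2427 in all, and 2160 calls for the breed by stage interaction in the pituitary. With the block 0 genes had an edgeR adjusted p under 0.05 in the juvenile comparison, while 3432 had an unadjusted P under 0.05, and DESeq2 without the block gave 4286 genes with an adjusted p under 0.05. The lowest depth, 11433209 reads, was that of MHPJ replicate 2.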
